A study of Mus musculus with 12 samples.

Results

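The 6 tumours labelled AHRKO, of 12 tumour samples in the study, were described here by how their transcripts varied among themselves. They were chosen by label alone, and the other 6 tumours, labelled WT, entered no calculation. All 6 were grown from CR705, a mouse pancreatic cancer cell line, and carry the genotype AHRKO, a knockout of the aryl hydrocarbon receptor (AHR), a transcription factor switched on by small ligands. The labels do not give the host mouse, the site of injection, the age at collection, the way the gene was disrupted, or how many clones or animals stand behind the samples. The growth and treatment texts speak of cultured cells given compounds, while the RNA text speaks of tumours, and no sample label names a compound. Tumour RNA was selected for poly(A) messages and sequenced on an Illumina instrument, so each library mixes cancer cells with every other cell type of the tissue.

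A solid tumour holds leukocytes, fibroblasts, blood vessels and cancer cells in proportions that differ from one piece to the next. Some transcripts are found in nearly all leukocytes: Ptprc encodes CD45, the surface phosphatase that sets the threshold of antigen receptor signalling, Cd53 a tetraspanin, Laptm5 a lysosomal membrane protein, and Coro1a an actin-binding coronin. The mean log2 CPM (read counts scaled to a common library size) of these 4 genes was used as a leukocyte score for each tumour. In bulk RNA, a difference in the number of cells of a type and a difference in RNA per cell cannot be told apart, so the score measures transcripts, not cells.

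The score was 8.45, 6.78, 6.48, 6.95, 5.82 and 6.73 in AHRKO replicates 1 to 6. Replicate 1 stood far above the next tumour, replicate 4, and replicate 5 was the lowest. The other 4 tumours lay between 6.48 and 6.95. Ptprc (chr1:138062861-138175708, minus strand, mm10) was at 293, 86.3, 53.2, 66.1, 42.3 and 77.7 CPM in replicates 1 to 6, the order in which all values by tumour are given. Cd53 (chr3:106759921-106790149, minus strand) was at 224, 70.8, 78.6, 103, 40.5 and 91.3 CPM. Laptm5 (chr4:130913125-130936141, plus strand) was at 619, 208, 157, 232, 96.9 and 185 CPM. These 3 genes had their highest level in replicate 1 and their lowest in replicate 5, but between those ends Ptprc ranked replicate 2 second while Cd53 and Laptm5 ranked replicate 4 second. Coro1a (chr7:126699773-126707787, minus strand) was at 367, 115, 95.2, 148, 60.8 and 95.5 CPM, with replicates 1, 4 and 2 on top, as for Laptm5, and replicate 5 again at the bottom. Since these 4 genes make up the score, no test of their slopes is reported, although their p-values stayed in the adjustment over all genes.

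**Figure D1:**
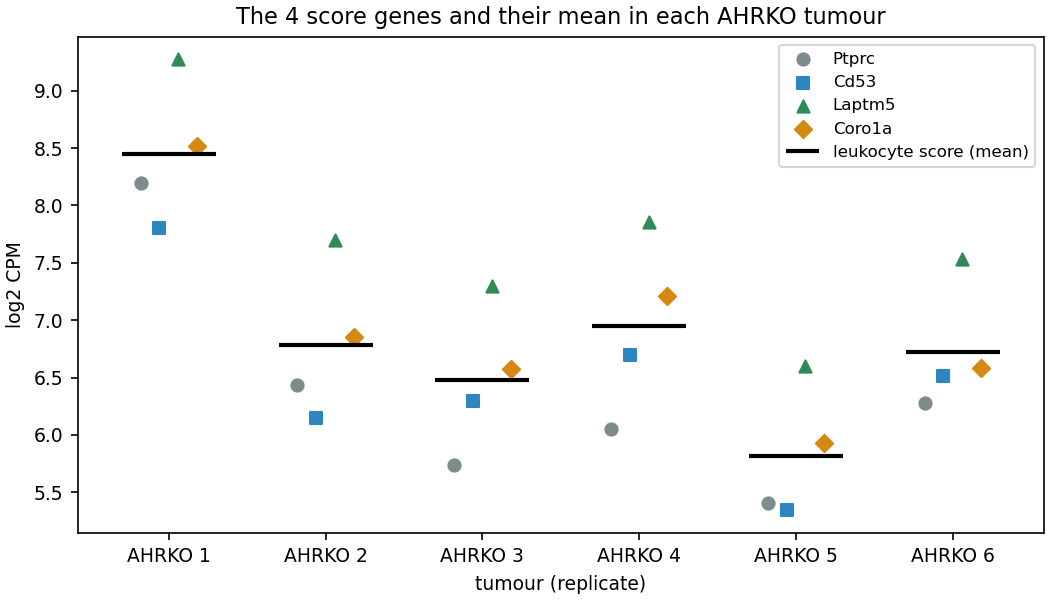
Level of the 4 score genes in each AHRKO tumour in log2 CPM (vertical axis), with a black line at their mean, the leukocyte score; tumours are on the horizontal axis. AHRKO 1 has a score of 8.45 and AHRKO 5 a score of 5.82, and the other tumours lie from 6.48 to 6.95.

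Library totals ran from 14772343 to 19944273 counts, and no pair of libraries agreed within sampling noise. Replicate 1 stood apart from the other tumours over the whole transcriptome: on the first principal component of the 1000 most variable genes, with 58.7% of the variance, it lay at 73.6 and replicate 5 lay at the other end at -46.0. The 10 most abundant genes took 8.22% of its counts against 4.51% to 5.01% in the other libraries. The label of a pancreatic cancer line was compared with marker transcripts. Krt8, a keratin of simple epithelia that was chosen after its values were seen, was at 235, 1519, 1329, 1981, 1398 and 1068 CPM. Pdx1, a transcription factor of pancreatic progenitors, was at 7.65, 49.9, 41.6, 48.5, 76.2 and 61 CPM. Of the markers of acinar cells 4 of 18 and of islet cells 2 of 10 had enough counts to be tested. Epithelial transcripts were thus present in all 6 tumours and lowest in replicate 1, and mature exocrine and endocrine transcripts were mostly at low counts. Ahr itself (chr12:35497974-35535038, minus strand), the gene named in the genotype, was at 62, 93.6, 142, 74.8, 124 and 114 CPM. Reads of Ahr were present in every tumour; the labels do not say which part of the gene was altered, and the genotype of the host is not given, so this level does not test the label.

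For each of 15405 genes with at least 10 counts in at least 3 of the 6 tumours, the slope of its level on the score was estimated, in log2 units of the gene per log2 unit of the score. With all 6 tumours, 2197 genes (14.3%) rose and 1173 genes (7.61%) fell with the score at an adjusted p under 0.05 by edgeR's quasi-likelihood test. The median slope over all tested genes was -0.01. None of these calls held in edgeR without replicate 1. Over the other 5 tumours it called 0 of 15091 genes in either direction, with 833 rising (5.52%) and 425 falling (2.82%) at an unadjusted p under 0.05. Over the same 5 tumours limma-voom also called 0 and 0, and DESeq2 called 245 and 43. Replicate 1 had the highest level of all 2197 rising genes and the lowest level of 1172 of the 1173 falling genes. Over all 15405 genes, replicate 1 was highest in 5214 (33.8%) and lowest in 4875. Of the rising genes that could be tested without it, 2072 of 2147 (96.5%) still had a slope above 0, against 51.6% of all genes, and of the falling genes 1158 of 1173 (98.7%) had a slope below 0, against 48.4% of all genes. The genes were selected in a fit that included these 5 tumours, so the shares are a description and no independent evidence. The order of all 6 scores was followed exactly by 138 rising genes, and in reverse by 38 falling genes. Over all tested genes, 157 followed it in the rising direction.

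A split by replicate 1 against the mean of the other 5 tumours gives a second view. In 2733 genes, replicate 1 was at least 1 log2 unit above the mean of the other 5 tumours, and of the 2545 that could be tested in those 5, 2240 (88.0%) had a slope above 0 among them, with a median slope of 0.68. In 1470 genes, replicate 1 was at least 1 log2 unit below that mean, and 1064 of them (72.4%) had a slope below 0 in the other 5, with a median of -0.26. Over all genes, 51.6% of slopes were above and 48.4% below 0 in these 5 tumours, and the differences between these shares were not tested. The genes here were chosen on the level of replicate 1 against the mean of the other 5 tumours. Replicate 1 did not enter these slopes, but the other 5 entered both the choice and the slopes. The shares are thus a description and no independent evidence.

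Transcripts of leukocytes in general followed the score closely with all 6 tumours, and kept similar slopes without replicate 1. Among the other tumours the score was 5.82 in replicate 5 and between 6.48 and 6.95 in the rest. Replicate 5 thus weighs most in every slope without replicate 1. All 24 further pan-leukocyte genes rose, with a median slope of 1.04 beside -0.01 for all genes. Without replicate 1 the median slope of the list was 1.04, with 24 of 24 slopes above 0 and none passing the test. For this list and all lists below, the shares to compare with are those over all tested genes. These were 14.3% rising and 7.61% falling with 6 tumours, and 51.6% of slopes above 0 without replicate 1. Selplg, the ligand by which leukocytes roll on selectins, was at 154, 39.8, 35.3, 48.1, 18.1 and 37.7 CPM. It was high in replicate 1, low in replicate 5 and close to even in the other 4, and its slope was 1.15 ± 0.07 (SE, n = 6; edgeR adjusted p = 0.000869), or 1.19 ± 0.19 without replicate 1. Rac2, the haematopoietic Rac GTPase, was at 183, 53.2, 47.3, 61.8, 27.3 and 46.8 CPM with a slope of 1.04 ± 0.07, or 0.98 ± 0.18 without replicate 1. Fermt3, the kindlin that activates integrins of blood cells, was at 151, 49.3, 40.7, 59.2, 24.5 and 47.5 CPM with a slope of 0.99 ± 0.06, or 1.09 ± 0.16 without replicate 1. Among the 5 rising genes with the smallest p were also Myo1g, a myosin of haematopoietic membranes, at 155, 40.7, 33.7, 50.8, 16.9 and 36.2 CPM and Vsir, which encodes the checkpoint protein VISTA, at 256, 70.9, 60.7, 83.4, 37.1 and 73.4 CPM. Their slopes were 1.20 ± 0.07 (SE, n = 6, edgeR adjusted p = 0.000869, and 1.33 ± 0.19 without replicate 1) and 1.06 ± 0.06 (SE, n = 6, edgeR adjusted p = 0.000869, and 1.02 ± 0.15 without replicate 1). A slope near 1 means that a gene changed by the same factor as the score genes.

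Transcripts of cytotoxic and natural killer (NK) cells had the steepest median slopes of the leukocyte lists. Of the genes of CD8 and cytotoxic cells, 10 of 12 tested rose and none fell, and the median slope was 1.56, or 2.21 without replicate 1, when 12 of 12 slopes were above 0 and none passed the test. Gzma (chr13:113093825-113100981, minus strand), a granule protease of cytotoxic lymphocytes, was at 32.9, 5.01, 1.71, 4.76, 0.193 and 2.25 CPM. It was at a trace in replicate 5, lay between these ends in the other 4 tumours, and had a slope of 2.33 ± 0.28 (SE, n = 6; edgeR adjusted p = 0.00244), or 4.07 ± 0.66 without replicate 1. Ccl5, a chemokine made by activated T and NK cells, was at 78, 20.5, 8.49, 15.8, 1.93 and 8.54 CPM with a slope of 1.83 ± 0.24 (edgeR adjusted p = 0.00302, and 2.84 ± 0.53 without replicate 1). Nkg7, a granule membrane protein, was at 27.4, 6.32, 3.97, 4.31, 1.29 and 6.92 CPM with a slope of 1.52 ± 0.20 (edgeR adjusted p = 0.00287, and 1.98 ± 0.58 without replicate 1). For Gzma and Ccl5 the slope among replicates 2 to 6 alone was steeper than with replicate 1. Cd8a, the CD8 coreceptor chain, named after its values were seen, did not pass (edgeR adjusted p = 0.0744): at 34.5, 14, 3.56, 1.42, 2.31 and 13.3 CPM it was high in replicates 1, 2 and 6 and low in replicates 3, 4 and 5.

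Of the 10 NK cell genes 9 rose, with a median slope of 1.5, or 1.68 without replicate 1 with 8 of 8 above 0 and none passing. Klrb1c, the NK1.1 antigen, was at 13.4, 1.64, 1.78, 3.12, 0.386 and 1.44 CPM with a slope of 1.78 ± 0.21 (SE, n = 6, edgeR adjusted p = 0.00208, and 2.28 ± 0.61 without replicate 1). Ncr1, the activating receptor NKp46, was at 5.89, 0.868, 0.959, 1.59, 0.321 and 0.75 CPM and thus low throughout, with a slope of 1.53 ± 0.20 (edgeR adjusted p = 0.00326, and 1.7 ± 0.62 without replicate 1). A further group of granzymes gave some of the largest slopes. Gzmd was at 109.9, 3.18, 9.45, 8.05, 4.43 and 8.36 CPM, Gzmf at 121, 1.98, 9.8, 9.18, 0.45 and 9.17 CPM and Gzmg at 116, 0.916, 12.1, 9.46, 0.321 and 7.67 CPM. These 3 were above 100 CPM in replicate 1 and at or below 12.1 CPM in every other tumour, and their order among the others was not that of Gzma, since replicate 2 was low and replicates 3, 4 and 6 were near one another. Their slopes were 1.84 ± 0.27, 2.43 ± 0.39 and 2.37 ± 0.51 (edgeR adjusted p = 0.00456, 0.00641 and 0.0167), or 0.49 ± 0.66, 2.996 ± 1.52 and 2.88 ± 2.06 without replicate 1. Gzmd, Gzmf and Gzmg are near-identical neighbours, and how reads were shared among them is uncertain.

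Of the T cell genes 18 of 22 tested rose, with a median slope of 1.28, or 1.27 without replicate 1 with 21 of 22 above 0 and none passing. Lck, the kinase that starts T cell receptor signalling, was at 41.6, 7.62, 7.19, 8.78, 2.76 and 7.38 CPM, with a slope of 1.43 ± 0.11 (SE, n = 6, edgeR adjusted p = 0.000869, and 1.44 ± 0.35 without replicate 1). Cd3g, a chain of the receptor complex, was at 22.6, 4.24, 4.04, 4.93, 1.16 and 3.75 CPM, with a slope of 1.51 ± 0.15 (edgeR adjusted p = 0.00134, and 1.76 ± 0.47 without replicate 1). Both were lowest in replicate 5 and nearly even in replicates 2, 3, 4 and 6. The transcription factor gene Tcf7, named after its values were seen, did not follow: it was at 44.1, 62.2, 53.6, 56.1, 58.9 and 49.5 CPM, with its lowest level in replicate 1 and an edgeR adjusted p of 0.236. In replicate 5 the 23 T cell genes together summed to 94.9 CPM, of which 58.9 CPM was Tcf7. The cell type that made Tcf7 transcripts was not tested. Genes of CD4 and regulatory T cells rose in 5 of 9 tested. Cd4 was at 48.3, 7.57, 9.25, 8.5, 5.21 and 8.25 CPM and Ctla4, an inhibitory receptor of regulatory T cells, at 24.7, 5.59, 7.26, 6.57, 2.96 and 4.38 CPM. Their slopes were 1.25 ± 0.14 (SE, n = 6, edgeR adjusted p = 0.00201, and 0.59 ± 0.33 without replicate 1) and 1.12 ± 0.16 (SE, n = 6, edgeR adjusted p = 0.00436, and 0.84 ± 0.48 without replicate 1). Beyond replicate 1 the CD4 group was flatter than the cytotoxic group, with a median slope of 0.56 without it, and none of its members passed; the difference between the groups was not tested.

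Transcripts of macrophages and monocytes had a summed level from 1468 CPM in replicate 5 to 9022 CPM in replicate 1. Of their 23 genes 20 rose and none fell, with a median slope of 1.04, and 1.34 without replicate 1, when 21 of 23 slopes were above 0 and none passed. Adgre1, the F4/80 antigen, was at 199.9, 64.3, 42.4, 73.2, 21.9 and 51.2 CPM. It followed the order of the score closely, with replicate 4 second and replicate 5 last, and its slope was 1.19 ± 0.09 (SE, n = 6; edgeR adjusted p = 0.000869), or 1.52 ± 0.18 without replicate 1. Ccr2, the receptor that brings monocytes out of the blood, was at 126, 39, 33.2, 45.7, 18.5 and 32.5 CPM with a slope of 1.04 ± 0.07 (edgeR adjusted p = 0.000869, and 1.08 ± 0.20 without replicate 1). Spi1 encodes PU.1, the transcription factor of myeloid lineages, and was at 198, 65.8, 51.9, 84.3, 30.5 and 56.8 CPM with a slope of 1.02 ± 0.08 (edgeR adjusted p = 0.000869, and 1.2 ± 0.18 without replicate 1). The members that did not pass include Cd14, a lipopolysaccharide co-receptor, at 247, 270.1, 241, 188, 248 and 288 CPM, and Cd163, a haemoglobin scavenger receptor, at 63.5, 30.1, 51.9, 143, 12.5 and 28.6 CPM; both are named after their values were seen. Cd14 was nearly level over the tumours, and Cd163 was highest in replicate 4 and lowest in replicate 5.

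Other myeloid groups rose less uniformly. Of the neutrophil genes 6 of 10 tested rose, with a median slope of 0.83 and 0.45 without replicate 1. S100a8, a calcium-binding alarmin of neutrophils, was at 40.1, 11.7, 5.55, 5.38, 7.58 and 7.5 CPM, with a slope of 1.02 ± 0.22 (SE, n = 6; edgeR adjusted p = 0.0178). Without replicate 1 its slope was 0.07 ± 0.49, so that the change lay between replicate 1 and the rest. Of the dendritic cell genes 9 of 15 rose, with a median slope of 0.81 and 0.74 without replicate 1. Flt3, the growth factor receptor of dendritic cell precursors, was at 24.1, 2.27, 5, 5.33, 2.31 and 4.1 CPM and Siglech, a lectin of plasmacytoid dendritic cells, at 17.7, 1.35, 2.67, 2.21, 0.514 and 1.5 CPM. Their slopes were 1.29 ± 0.21 and 1.79 ± 0.24 (edgeR adjusted p = 0.00632 and 0.00325), or 0.74 ± 0.58 and 1.42 ± 0.80 without replicate 1. Replicate 2 was among the lowest tumours for both, although its score was the third highest. Genes of mast cells and eosinophils rose in 5 of 12, with a median slope of 0.61 and 0.73 without replicate 1. In these 3 lists none passed the test without replicate 1. Cma1, a mast cell chymase, was at 24.4, 13.9, 12.3, 11.6, 6.62 and 8.94 CPM with a slope of 0.66 ± 0.14 (edgeR adjusted p = 0.0146, and 0.75 ± 0.36 without replicate 1).

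Most B cell and plasma cell genes had slopes above 0, and few passed the test. Of the B cell genes, 11 of 15 could be tested, 4 rose and 1 fell, 10 of 11 slopes were above 0, and over all genes 14.3% rose and 7.61% fell. The list had a median slope of 1.1 and 1.33 without replicate 1. Cd22, an inhibitory coreceptor of B cells, was at 21.2, 6.22, 4.93, 9.75, 2.64 and 5.94 CPM with a slope of 1.13 ± 0.14 (SE, n = 6, edgeR adjusted p = 0.00268, and 1.51 ± 0.34 without replicate 1). Blk (chr14:63372836-63417037, minus strand), a Src-family kinase of B cells, was at 14, 56, 29.7, 38.1, 109 and 47.2 CPM. Blk went the other way from the 4 that rose, highest in replicate 5 and lowest in replicate 1, and its slope was -1.05 ± 0.20 (SE, n = 6; edgeR adjusted p = 0.0112), or -1.14 ± 0.38 without replicate 1. In replicate 5 the 15 B cell genes together summed to 119 CPM, most of it from Blk. The cell type that made Blk transcripts was not tested. Of the plasma cell genes 4 of 15 tested rose and 1 fell, 13 of 15 slopes were above 0, with a median slope of 1.04 and 1.29 without replicate 1, and none passed in either list without it. Irf4, a transcription factor of plasma cell differentiation, was at 29.9, 8.78, 11.5, 12.8, 3.66 and 6.11 CPM with a slope of 1.04 ± 0.19 (edgeR adjusted p = 0.0104, and 1.29 ± 0.53 without replicate 1). Sdc1, which encodes syndecan-1 and is also a proteoglycan of epithelia, was the one that fell: it was at 334, 616, 620.2, 702, 697 and 575 CPM, with a slope of -0.41 ± 0.12 (SE, n = 6, edgeR adjusted p = 0.0476, and -0.07 ± 0.20 without replicate 1). Immunoglobulin heavy chain transcripts were among the most variable and did not follow the order of the score. Ighm, of the IgM class, was at 1837, 25.7, 1885, 1016, 87 and 339 CPM, Ighg1 at 975, 0.386, 41.9, 72.1, 36.6 and 630.3 CPM and Ighg2c at 715, 26.2, 407, 0.0567, 25.3 and 68.9 CPM. Replicate 2 was the lowest tumour for Ighm and Ighg1 and replicate 4 the lowest for Ighg2c, and replicate 1 was not the highest for Ighm. The edgeR adjusted p-values of these 3 genes were 0.472, 0.275 and 0.377. The constant-region genes resemble one another, so the split of reads among them is uncertain.

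**Figure D2:**
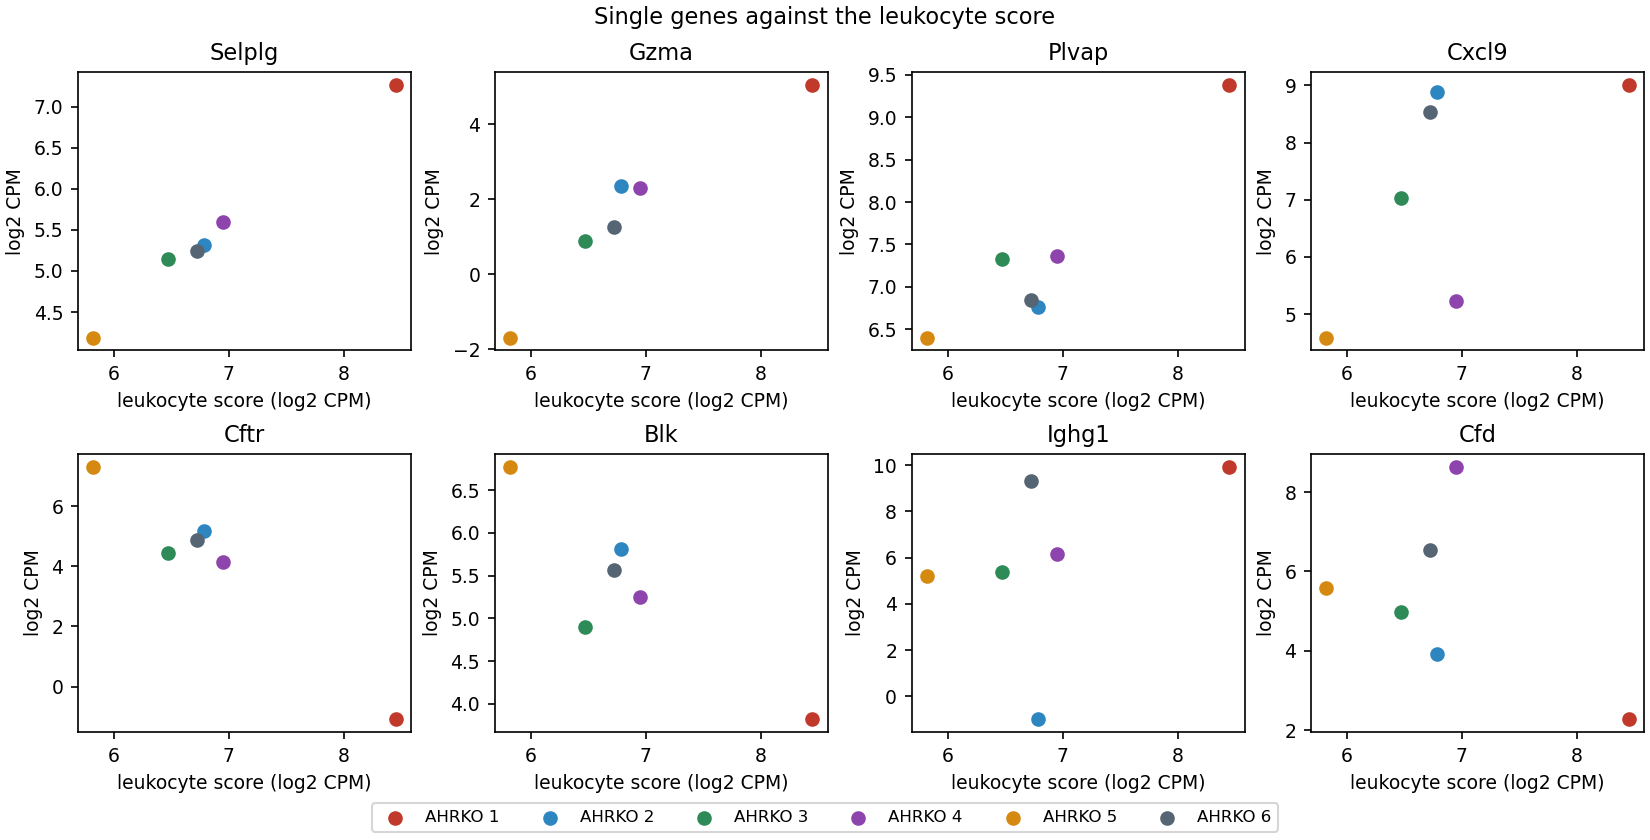
Level of 8 genes in log2 CPM (vertical axes) against the leukocyte score in log2 CPM (horizontal axes), 1 point for each AHRKO tumour. Selplg, Gzma and Plvap are highest in AHRKO 1, Cftr and Blk lowest there and highest in AHRKO 5, Cxcl9 is high in AHRKO 1, 2 and 6, Ighg1 is lowest in AHRKO 2, and Cfd is highest in AHRKO 4.

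Interferon-induced transcripts followed a different order among the tumours. Interferon gamma, made by activated T and NK cells, raises antigen presentation genes and the chemokines that draw T cells. Of the 26 genes of this list 9 rose and none fell, with a median slope of 0.80, and 1.29 without replicate 1, when 26 of 26 slopes were above 0 and none passed. Among all tested genes 14.3% rose and 7.61% fell, and 51.6% of slopes were above 0 without replicate 1. The mean level of the list was 8.30, 7.80, 6.91, 6.31, 5.73 and 7.64 log2 CPM. It was high in replicates 1, 2 and 6 and low in replicates 4 and 5, whereas replicate 4 had the second highest leukocyte score. Tap2, which moves peptides to class I molecules, was at 108, 52.7, 37.5, 29.3, 15.9 and 43.4 CPM and had a slope of 0.94 ± 0.17 (SE, n = 6, edgeR adjusted p = 0.00956, and 1.23 ± 0.45 without replicate 1). H2-Aa, a chain of a class II molecule, was at 1061, 536, 195, 274, 159 and 336 CPM and had a slope of 1.04 ± 0.19 (edgeR adjusted p = 0.00954, and 1.21 ± 0.48 without replicate 1). H2-D1, a class I heavy chain with similar paralogs, was at 3836, 2074, 1747, 1279.8, 747 and 1804 CPM and had a slope of 0.78 ± 0.17 (edgeR adjusted p = 0.0191, and 1.05 ± 0.44 without replicate 1).

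Of the members that did not pass, 4 that are strongly induced by interferon gamma were named after their values were seen. Cxcl9 (chr5:92321347-92328079, minus strand), a chemokine for CXCR3-bearing T cells, was at 515, 470.2, 131, 37.3, 24 and 372 CPM, at 372 CPM or more in replicates 1, 2 and 6 and at 37.3 CPM or less in replicates 4 and 5. Its edgeR adjusted p was 0.278. Gbp2, a guanylate-binding protein, was at 511, 463, 239.8, 70.8, 48.4 and 486 CPM, Socs1, the feedback inhibitor of the pathway, at 98.9, 69.2, 41.8, 46.9, 11.1 and 58.7 CPM and Irf1, an early transcription factor of the response, at 264, 203, 114, 85.8, 62.6 and 179.5 CPM. Their edgeR adjusted p-values were 0.324, 0.0558 and 0.0775. Replicates 1, 2 and 6 were the 3 highest tumours for all 4 genes.

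The start regions of these last 3 genes are shown because they hold the sequence motifs of this pathway. The genes shared their 3 highest tumours, but not the full order of the tumours. A link between the motifs and these levels was not tested. Each is the 250 bases upstream of the start in RefSeq (GRCm38.p6), 5′ to 3′ on the gene's strand, with capitals for a match on either strand to GAAANNGAAA (in Gbp2 and Socs1), part of the interferon-stimulated response element (ISRE), or to TTCNNNGAA (in Irf1), the gamma-activated site (GAS).
Gbp2 (chr3:142620413-142620662, plus strand): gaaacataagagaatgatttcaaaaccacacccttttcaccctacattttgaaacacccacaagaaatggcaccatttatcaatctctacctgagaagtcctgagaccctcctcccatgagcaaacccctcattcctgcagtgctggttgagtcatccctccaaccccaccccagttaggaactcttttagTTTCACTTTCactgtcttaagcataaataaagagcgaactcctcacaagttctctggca
Socs1 (chr16:10785537-10785786, minus strand): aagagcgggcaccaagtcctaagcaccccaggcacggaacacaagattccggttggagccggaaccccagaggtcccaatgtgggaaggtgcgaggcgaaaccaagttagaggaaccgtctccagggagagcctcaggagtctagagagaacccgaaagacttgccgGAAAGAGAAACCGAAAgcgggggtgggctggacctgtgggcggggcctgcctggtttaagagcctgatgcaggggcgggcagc
Irf1 (chr11:53769764-53770013, plus strand): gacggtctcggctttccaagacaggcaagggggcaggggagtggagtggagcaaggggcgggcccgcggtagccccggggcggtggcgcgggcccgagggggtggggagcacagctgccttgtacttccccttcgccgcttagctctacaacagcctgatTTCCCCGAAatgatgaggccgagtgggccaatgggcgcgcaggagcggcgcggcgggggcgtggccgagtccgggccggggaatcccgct
The match lies 59 to 50 bases before the start in Gbp2 and 90 to 82 bases before it in Irf1, and in Socs1 overlapping matches lie 83 to 74 and 77 to 68 bases before it. Of the 26 genes of the list, 18 had a start region in the table; GAAANNGAAA occurred in 6 of them (33.3%) and TTCNNNGAA in 3 (16.7%). Of 11356 tested genes with such a region, 378 (3.33%) held the first and 831 (7.32%) the second. A match describes these letters only, and no binding was measured.

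Type I interferon genes, which answer to viral nucleic acids and to interferon alpha and beta, rose in 9 of 25, with a median slope of 0.64 and 0.79 without replicate 1. The share of all tested genes that rose was 14.3%. Oas2, an enzyme that senses double-stranded RNA, was at 63.5, 25.9, 17.3, 16.5, 11.6 and 22.6 CPM with a slope of 0.92 ± 0.12 (SE, n = 6, edgeR adjusted p = 0.00343, and 0.81 ± 0.35 without replicate 1). Chemokines and receptors of lymphocytes rose in 5 of 12, with a median slope of 0.98 and 1.51 without replicate 1. Cxcr3, the receptor for Cxcl9, was at 20.4, 2.46, 3.84, 4.7, 0.836 and 2.83 CPM with a slope of 1.59 ± 0.21 (edgeR adjusted p = 0.00289, and 1.83 ± 0.64 without replicate 1). Unlike its ligand gene, Cxcr3 was lower in replicates 2 and 6 than in replicate 4. Myeloid chemokines and inflammatory cytokines rose in 7 of 17, with a median slope of 0.61 that became 0.18 without replicate 1. Ccl4, a macrophage and T cell chemokine, was at 25.1, 7.14, 7.54, 5.55, 2.96 and 6.35 CPM with a slope of 1.09 ± 0.16 (edgeR adjusted p = 0.00411, and 0.94 ± 0.47 without replicate 1). Checkpoint genes rose in 11 of 16 and complement genes in 9 of 11, with median slopes of 0.95 and 0.90, and of 0.70 and 0.90 without replicate 1. None of these 5 lists had a gene that passed without replicate 1. Cd86, a costimulatory ligand on antigen-presenting cells, was at 51.3, 18.5, 11, 13.3, 6.23 and 13.5 CPM with a slope of 1.13 ± 0.12 (edgeR adjusted p = 0.00153, and 1.21 ± 0.34 without replicate 1). C3, the central complement protein, was at 2317, 512, 518, 779, 351 and 637 CPM with a slope of 1.06 ± 0.10 (edgeR adjusted p = 0.00123, and 0.90 ± 0.24 without replicate 1). Both were highest in replicate 1 and lowest in replicate 5.

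**Figure D3:**
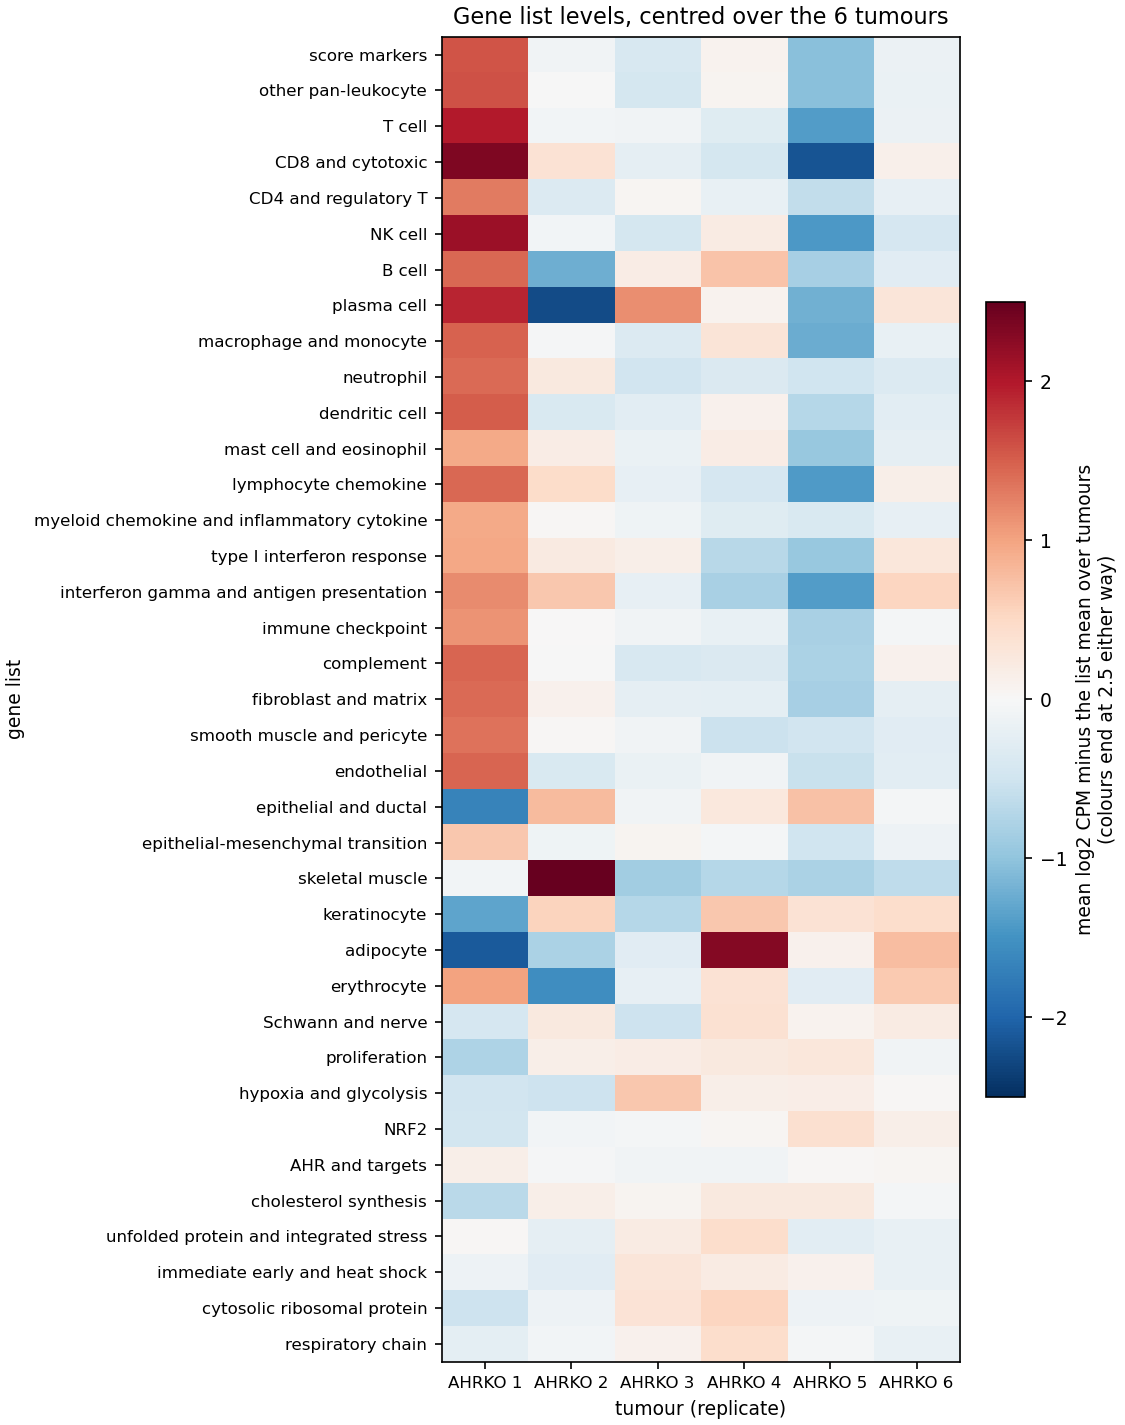
Mean log2 CPM of the tested genes of each list (rows) in each AHRKO tumour (columns), minus the mean of that list over the 6 tumours; red is above and blue below it. Leukocyte and stromal lists are highest in AHRKO 1, skeletal muscle genes in AHRKO 2 and adipocyte genes in AHRKO 4.

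Stromal transcripts rose together with those of leukocytes. Of the 20 fibroblast and matrix genes 19 rose, with a median slope of 0.82, or 0.71 without replicate 1, when 19 of 20 slopes were above 0 and none passed. Their summed level ran from 15875 CPM in replicate 5 to 75875 CPM in replicate 1. Dcn, the collagen-binding proteoglycan decorin, was at 755, 200.5, 135, 211, 83.3 and 122 CPM with a slope of 1.23 ± 0.11 (SE, n = 6, edgeR adjusted p = 0.000932, and 1.13 ± 0.27 without replicate 1). Pi16, a marker of fibroblasts around vessels, was at 341, 71.3, 34.4, 57.6, 19.99 and 58 CPM with a slope of 1.56 ± 0.10 (SE, n = 6; edgeR adjusted p = 0.000869), or 1.6 ± 0.28 without replicate 1. Pdgfra, the growth factor receptor that marks fibroblasts, was at 242, 93.2, 61.7, 75.7, 37.2 and 66.5 CPM with a slope of 1.01 ± 0.09 (edgeR adjusted p = 0.00099, and 1.04 ± 0.23 without replicate 1). All 3 were lowest in replicate 5, so that the leukocyte score and fibroblast transcripts varied in the same direction at both ends. Of the genes of epithelial-mesenchymal transition 5 of 12 rose, with a median slope of 0.53, and 0.40 without replicate 1, when none passed. Tgfbi, a matrix protein induced by TGF-beta, was at 718, 319, 207, 285, 97.8 and 242 CPM with a slope of 1.03 ± 0.12 (edgeR adjusted p = 0.00237, and 1.48 ± 0.23 without replicate 1). Many genes of that list are also made by fibroblasts, whose transcripts moved with them, and that part in the result was not tested.

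Vessel transcripts were higher in replicate 1 than elsewhere, and the median slopes of both vessel lists were lower over the other 5 tumours. Endothelial genes rose in 14 of 18, with a median slope of 0.89 that became 0.33 without replicate 1. Plvap, a protein of endothelial fenestrae, was at 668, 108, 160.0, 164, 84.3 and 115 CPM with a slope of 1.14 ± 0.14 (SE, n = 6, edgeR adjusted p = 0.0027, and 0.62 ± 0.32 without replicate 1). Tek, the angiopoietin receptor, was at 46.1, 11.1, 9.11, 10.9, 9.13 and 10.8 CPM, about even in replicates 2 to 6; its slope of 0.97 ± 0.14 (edgeR adjusted p = 0.00406) became 0.28 ± 0.25 without replicate 1. Gja5, a connexin of arterial endothelium, was at 56, 5.26, 3.56, 4.08, 2.57 and 3.52 CPM with a slope of 1.82 ± 0.19 (edgeR adjusted p = 0.00155, and 0.72 ± 0.40 without replicate 1). Genes of smooth muscle and pericytes rose in 5 of 11, with a median slope of 0.67 and 0.04 without replicate 1. Rgs5, a regulator of G protein signalling in pericytes, was at 759.7, 83.9, 70.7, 61, 77.1 and 62 CPM. Its slope of 1.37 ± 0.24 (SE, n = 6; edgeR adjusted p = 0.00912) turned to -0.16 ± 0.21 without replicate 1, and the other 5 tumours all lay in the range 61 to 83.9 CPM. No gene of either list passed without replicate 1. Sele, the E-selectin of inflamed endothelium, is in neither list and was picked for its large change of slope without replicate 1. It was at 16, 2.22, 1.64, 1.13, 1.74 and 1.44 CPM. Its slope of 1.37 ± 0.27 (edgeR adjusted p = 0.0126) became -0.17 ± 0.51 without replicate 1, a change that follows from how it was picked.

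Other genes with large positive slopes came from outside the lists. Itgbl1, an integrin-like matrix protein, was at 96.5, 12.7, 1.3, 3, 2.19 and 5.48 CPM with a slope of 2.22 ± 0.35 (SE, n = 6; edgeR adjusted p = 0.00593). Prl2c3, a proliferin-type hormone gene with near-identical relatives, was at 51.8, 2.03, 7.06, 11.3, 0.386 and 2.71 CPM with a slope of 2.14 ± 0.42 (SE, n = 6; edgeR adjusted p = 0.0126). Cdkn1c, a cyclin-dependent kinase inhibitor, was at 21, 2.22, 1.71, 2.27, 0.964 and 2.02 CPM with a slope of 1.76 ± 0.15 (SE, n = 6; edgeR adjusted p = 0.000927). All 3 were highest in replicate 1, with no other tumour above 12.7 CPM for any of them, and without it their slopes were 1.65 ± 1.09, 3.18 ± 1.31 and 1.13 ± 0.43, with none passing the test.

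**Figure D4:**
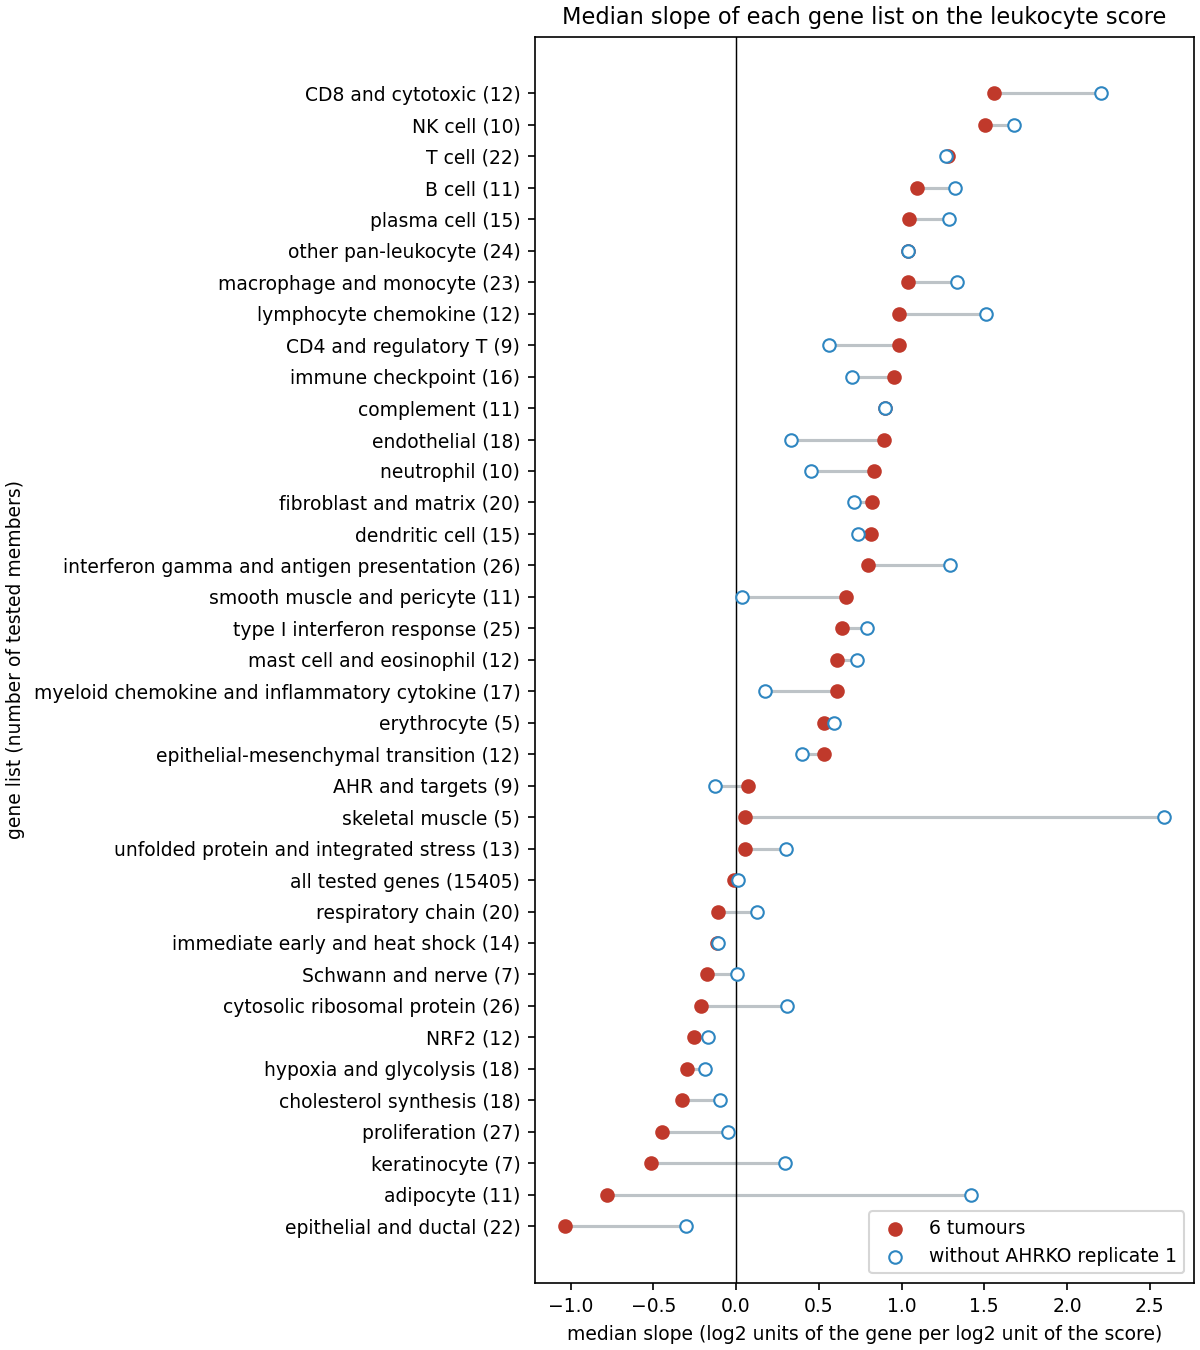
Median slope on the leukocyte score (horizontal axis, log2 units of the gene per log2 unit of the score) of the tested genes of each list (vertical axis, number of genes in brackets), with 6 tumours (filled) and without AHRKO replicate 1 (open). Pan-leukocyte genes stay at 1.04, endothelial genes go from 0.89 to 0.33, and epithelial genes go from -1.03 to -0.30.

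Epithelial transcripts were lowest in replicate 1, the tumour with the highest score. Their list mean was 3.25, 5.72, 4.84, 5.19, 5.66 and 4.88 log2 CPM, highest in replicate 2. Among replicates 2 to 6 it did not follow the reverse order of the score. Sox9, Elf3 and Tff2, described below, were chosen from the list by their small p, and were highest in replicate 5. Of the 22 tested epithelial and ductal genes 9 fell and none rose, with a median slope of -1.03, or -0.30 without replicate 1, when 14 of 22 slopes were at or below 0 and none passed. By comparison, 7.61% of all tested genes fell, and 48.4% of all slopes were below 0 without replicate 1. Leaving out replicate 5 lowered the number of falling genes over all genes from 1173 to 588. Sox9, a transcription factor of pancreatic ducts, was at 16.2, 127, 124, 148, 207 and 136 CPM. Replicate 1 lay far below every other tumour, which had at least 124 CPM, and the slope was -1.42 ± 0.26 (SE, n = 6; edgeR adjusted p = 0.00967), or -0.49 ± 0.21 without replicate 1. Elf3, an epithelial ETS factor, was at 8.18, 99.8, 93.1, 127, 189 and 87.7 CPM with a slope of -1.69 ± 0.33 (edgeR adjusted p = 0.0117, and -0.67 ± 0.29 without replicate 1). Tff2, a trefoil peptide secreted with gastric mucus, was at 14.4, 81.1, 85, 79.97, 317 and 65.2 CPM and stood out in replicate 5 as well as in replicate 1, with a slope of -1.61 ± 0.17 (SE, n = 6; edgeR adjusted p = 0.00159), or -1.86 ± 0.29 without replicate 1. Pdx1, whose levels are given above, had a slope of -1.27 ± 0.23 (edgeR adjusted p = 0.01, and -0.48 ± 0.25 without replicate 1).

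Among the 12 steepest falls at a mean log2 CPM of at least 1, several genes were near 0 in replicate 1 and highest in replicate 5. Gkn2, gastrokine 2 of the gastric surface epithelium, was at 0, 17.3, 3.22, 0.283, 93.5 and 1.15 CPM, and Gkn3, its relative, at 0.177, 28.3, 4.73, 4.93, 98.9 and 11.2 CPM. Their slopes were -4.22 ± 1.05 (SE, n = 6, edgeR adjusted p = 0.0279, and -4.01 ± 1.42 without replicate 1) and -3.15 ± 0.63 (SE, n = 6, edgeR adjusted p = 0.0129, and -2.77 ± 0.90 without replicate 1). Itih4, a plasma protein made mainly by liver, was at 0.118, 2.27, 2.06, 1.36, 37.9 and 5.94 CPM with a slope of -3.40 ± 0.47 (SE, n = 6, edgeR adjusted p = 0.00366, and -3.71 ± 0.67 without replicate 1). Where a tumour had 0 counts, the slope depends on the prior count and gives no size. Muc6, a mucin of gastric glands, was at 1.59, 17.1, 1.78, 1.25, 170.4 and 3.63 CPM and Dmbt1, a mucosal scavenger receptor, at 1.77, 399, 101, 82.6, 892 and 269 CPM. Muc6 was at 170.4 CPM in replicate 5 and at or below 17.1 CPM in all other tumours, with a slope of -2.74 ± 0.79 (SE, n = 6, edgeR adjusted p = 0.0446, and -4.6 ± 1.18 without replicate 1). The slope of Dmbt1 was -3.38 ± 0.71 (SE, n = 6, edgeR adjusted p = 0.0155, and -1.94 ± 0.79 without replicate 1). Cftr (chr6:18170687-18322768, plus strand), the chloride channel of ducts, was at 0.353, 35.8, 21.4, 17.6, 158 and 29.4 CPM with a slope of -3.05 ± 0.34 (SE, n = 6; edgeR adjusted p = 0.00184), or -2.47 ± 0.42 without replicate 1. Replicates 2, 3, 4 and 6 lay between 17.6 and 35.8 CPM, so Cftr differed at both ends of the score. Reg3b, an antimicrobial lectin induced in injured pancreas, was at 0, 1.25, 3.97, 2.38, 9.26 and 4.56 CPM and Gpx2, an epithelial glutathione peroxidase, at 0, 28.9, 6.65, 7.42, 52.4 and 3.63 CPM. Both had 0 counts in replicate 1. Their slopes were -2.69 ± 0.54 (SE, n = 6, edgeR adjusted p = 0.0136, and -1.78 ± 0.57 without replicate 1) and -2.93 ± 0.81 (SE, n = 6, edgeR adjusted p = 0.0405, and -1.87 ± 0.94 without replicate 1). Prom1, the membrane protein CD133, was at 2.12, 284, 85.4, 67.7, 261 and 139.9 CPM, highest in replicate 2, and Tmprss2, a serine protease of epithelia, at 2, 156, 73.5, 83.4, 183 and 116 CPM. For Prom1 and Tmprss2, replicate 5 was little different from replicate 2, and the slopes of -2.69 ± 0.78 and -2.46 ± 0.63 (edgeR adjusted p = 0.0451 and 0.0308) became -0.74 ± 0.71 and -0.62 ± 0.41 without replicate 1. Both were picked for a large change of slope without replicate 1, so this change follows from the choice.

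The 5 falling genes with the smallest p were Asz1, Sema4g, Klf5, Pkp2 and Tff2, which is described above; they were chosen for following the score. Asz1, a gene known from germ cells, was at 0, 0.482, 1.23, 0.51, 7.2 and 0.635 CPM with a slope of -3.66 ± 0.32 (SE, n = 6, edgeR adjusted p = 0.00099, and -3.57 ± 0.39 without replicate 1), low in every tumour and with 0 counts in replicate 1. It lies close to Cftr on the same chromosome (chr6:18050964-18109061, minus strand). Cftr was likewise lowest in replicate 1 and highest in replicate 5, and whether Asz1 varies independently of it was not tested. Sema4g, a semaphorin, was at 4.83, 49.9, 64.7, 35.5, 103 and 51.3 CPM with a slope of -1.73 ± 0.15 (SE, n = 6; edgeR adjusted p = 0.00099), or -1.2 ± 0.18 without replicate 1. Klf5, a transcription factor of proliferating epithelia, was at 19, 82.7, 96.8, 82.5, 199.7 and 116 CPM with a slope of -1.28 ± 0.12 (SE, n = 6; edgeR adjusted p = 0.00123), or -1.06 ± 0.21 without replicate 1. Pkp2, a plakophilin of desmosomes, was at 12.1, 53.8, 61.7, 49.5, 92.9 and 54.5 CPM with a slope of -1.13 ± 0.10 (SE, n = 6; edgeR adjusted p = 0.0012), or -0.78 ± 0.14 without replicate 1. All 4 were highest in replicate 5 and lowest in replicate 1, and none passed the adjusted threshold without replicate 1.

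Genes of cell division fell by smaller amounts. Of the 27 proliferation genes 11 fell and none rose, with a median slope of -0.45 and -0.05 without replicate 1, when none passed. Among all tested genes 7.61% fell. Mcm6, a subunit of the replicative helicase, was at 102, 198, 212, 185, 230.5 and 177 CPM with a slope of -0.47 ± 0.09 (SE, n = 6, edgeR adjusted p = 0.00995, and -0.28 ± 0.16 without replicate 1). Foxm1, a transcription factor of mitotic genes, was at 83.6, 161, 169, 158, 189 and 155 CPM with a slope of -0.46 ± 0.08 (SE, n = 6, edgeR adjusted p = 0.00967, and -0.23 ± 0.15 without replicate 1). The difference lay between replicate 1 and the others, which were close to even. Cholesterol synthesis genes fell in 6 of 18, with a median slope of -0.33 and -0.10 without replicate 1. Fdft1, squalene synthase, was at 49.8, 154, 126, 162, 419.6 and 143 CPM with a slope of -1.07 ± 0.17 (SE, n = 6; edgeR adjusted p = 0.00576), or -1.28 ± 0.31 without replicate 1. It was highest in replicate 5, as was Srebf2, the transcription factor of the pathway, at 231, 415, 415, 417, 557 and 410.4 CPM with a slope of -0.47 ± 0.09 (edgeR adjusted p = 0.0104, and -0.38 ± 0.18 without replicate 1). Of the NRF2 targets, which detoxify electrophiles, 4 of 12 fell and 1 rose, where over all tested genes 7.61% fell and 14.3% rose. Gsta4, a glutathione transferase, was at 3.12, 78.1, 51.3, 69.7, 158 and 76.4 CPM with a slope of -2.09 ± 0.37 (edgeR adjusted p = 0.00927, and -0.97 ± 0.32 without replicate 1). Gclc, of glutathione synthesis, was at 41.7, 68.3, 63.7, 79.1, 142 and 85.5 CPM with a slope of -0.60 ± 0.13 (edgeR adjusted p = 0.0176, and -0.78 ± 0.26 without replicate 1), and Srxn1, sulfiredoxin, which rose, was at 77.2, 40.1, 38.3, 33.6, 35.3 and 39 CPM with a slope of 0.45 ± 0.10 (edgeR adjusted p = 0.0182, and 0.06 ± 0.18 without replicate 1). The median slope of the NRF2 list was -0.25, and -0.17 without replicate 1; no gene of the cholesterol or NRF2 lists passed without that tumour. Epithelial transcripts, with a list mean of 3.25, 5.72, 4.84, 5.19, 5.66 and 4.88 log2 CPM, moved with these groups, and their part in the result was not tested.

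Genes of the AHR pathway had no common direction: 2 of 9 tested rose and 2 fell, with a median slope of 0.07 and -0.12 without replicate 1. Over all tested genes, 14.3% rose and 7.61% fell. Ahr, whose levels are given above, had a slope of -0.45 ± 0.13 (SE, n = 6; edgeR adjusted p = 0.0438), or -0.51 ± 0.30 without replicate 1; replicate 3 was its highest tumour and replicate 1 its lowest. Cyp1b1, a cytochrome P450 induced by AHR and common in stroma, was at 151, 24.4, 16.2, 26.9, 18.3 and 39.3 CPM with a slope of 1.24 ± 0.17 (SE, n = 6, edgeR adjusted p = 0.00349, and 0.70 ± 0.41 without replicate 1). Aldh3a1, an aldehyde dehydrogenase of epithelia, was at 2.41, 70.6, 24.6, 34.2, 86.8 and 38.1 CPM with a slope of -1.89 ± 0.45 (SE, n = 6, edgeR adjusted p = 0.0245, and -0.81 ± 0.52 without replicate 1). Cyp1b1 was thus highest and Aldh3a1 lowest in replicate 1, and no gene of the list passed without that tumour. Fibroblast transcripts rose and epithelial transcripts fell in the same tumour, and their part in these 2 results was not tested.

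Some differences between the tumours did not follow the order of the score. Transcripts of skeletal muscle were high in replicate 2 alone: Ttn, the giant sarcomere protein titin, was at 2.24, 51.9, 1.58, 1.13, 0.578 and 1.56 CPM, and Tnnt3, a fast troponin named after its values were seen, at 3.3, 35.7, 0.891, 0.623, 0.578 and 1.33 CPM. Of the 16 muscle genes 5 had enough counts to be tested and none passed. Tchh, trichohyalin of hair follicles, was at 1.35, 110.4, 1.3, 1.81, 1.86 and 2.13 CPM, and was likewise high in replicate 2. Adipocyte transcripts were highest in replicate 4 and lowest in replicate 1: the list mean was 1.55, 2.85, 3.35, 5.94, 3.76 and 4.41 log2 CPM, and Cfd, the adipokine adipsin, named after its values were seen, was at 4.71, 14.9, 31.6, 399, 48.1 and 93.7 CPM. The list had a median slope of -0.78, but 1.42 without replicate 1, when 10 of 11 slopes were above 0. Of 11 adipocyte genes only Pparg, the nuclear receptor of fat cell differentiation, passed, falling with a slope of -0.94 ± 0.22 (SE, n = 6, edgeR adjusted p = 0.0221, and -0.48 ± 0.36 without replicate 1) at 18, 41.2, 78.3, 86.3, 98.8 and 64.9 CPM. Without replicate 1 Pparg did not pass. Chil4, a chitinase-like protein of alternatively activated macrophages, was at 25.1, 2.41, 197, 1185, 0 and 14.2 CPM, high in replicate 4, with 0 counts in replicate 5. Ttn, Tchh, Cfd and Chil4 did not pass, with edgeR adjusted p-values of 0.925, 0.805, 0.83 and 0.899.

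By level per length (CPM per kilobase of exon), the most abundant messages of these tumours were those of the secreted phosphoprotein Spp1, at 2848 ± 1185 (mean ± SD, n = 6), and the elongation factor Eef1a1, at 2657 ± 536. Rplp1, a ribosomal stalk protein, was at 2230.1 ± 807 and B2m, the light chain of class I molecules, at 1453 ± 775 CPM per kilobase. Next came Rplp0 at 1348 ± 389, Col1a1, a chain of type I collagen, at 1234 ± 978, and Clu, the chaperone clusterin, at 1179 ± 537 CPM per kilobase. The SD of Col1a1 was close to its mean, while Actb, cytoplasmic actin, at 1061 ± 108 CPM per kilobase, varied least of the 12 most abundant genes. In CPM, Col1a1 was at 20711, 8127, 5795, 3826, 3486 and 6638 CPM and Clu at 689, 3713, 4052, 5338, 5987 and 4527 CPM. Col1a1 rose with a slope of 0.94 ± 0.19 (SE, n = 6, edgeR adjusted p = 0.0126, and 0.68 ± 0.51 without replicate 1) and Clu fell with a slope of -1.21 ± 0.28 (SE, n = 6, edgeR adjusted p = 0.0227, and -0.29 ± 0.30 without replicate 1), and per length their order turned: Col1a1 was at 3156 and Clu at 200.5 CPM per kilobase in replicate 1, against 531 and 1742 in replicate 5. B2m rose, at 2446, 1337, 1147, 724, 547 and 1298 CPM, with a slope of 0.72 ± 0.18 (SE, n = 6, edgeR adjusted p = 0.0317, and 0.85 ± 0.49 without replicate 1). None of these 3 genes passed without replicate 1. Spp1 was at 2309, 2935, 6349, 7436, 4569 and 4562 CPM, highest in replicate 4, and did not pass (edgeR adjusted p = 0.311).

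Ribosomal protein genes formed a group with no call whose median slope changed sign without replicate 1. None of the 26 passed with 6 tumours, their median slope was -0.21, and without replicate 1 it was 0.31, with 26 of 26 slopes above 0 and none passing. Their mean level was 9.29, 9.68, 10.15, 10.36, 9.69 and 9.70 log2 CPM, highest in replicate 4 and lowest in replicate 1. Respiratory chain genes likewise had no member that passed, with a median slope of -0.11 and 0.12 without replicate 1. Xist, the long RNA of the inactive X chromosome, was between 412.7 and 620.8 CPM in all 6 tumours, with an edgeR adjusted p of 0.482.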

How the data were processed

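The sources are 6 AHRKO libraries of poly(A)-selected tumour RNA. Per the submitters' processing notes, the authors used mm10, HISAT2, SAMtools, HTSeq and DESeq2; annotation, strand setting and versions are not stated, so overlapping and antisense genes cannot be separated. The deposited values are raw read counts per gene, without normalization. The table holds 43432 Ensembl genes; GENCODE M21 (mm10) named 42548 of them and 884 had no match, and the 37 mitochondrial genes had 0 counts.

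From the counts, CPM were computed with TMM factors over the 6 libraries, and log2 CPM with a prior count of 2, in edgeR 4.0.16 (R 4.3.3). Genes with at least 10 counts in at least 3 libraries were kept. This left 15409 genes; the 4 score genes were left out of the counts of calls. Each gene's counts were fitted on the score with an intercept with edgeR (quasi-likelihood F-test of the slope in both directions, p adjusted by Benjamini and Hochberg over all tested genes, threshold 0.05). The standard error is the slope divided by the square root of F. Alternatives used limma 3.58.1 (voom) and DESeq2 1.42.0. No label says that replicates are separate animals, so p-values measure the spread between these samples, and the score is itself measured in them with an error the fit ignores. On simulated data with known slopes over 15409 genes, the fit recovered 48 of 50 genes with a slope of 1, 12 of 50 with 0.5, 15 of 50 with -0.5 and 42 of 50 with -1, with 4 false calls among 15209 unchanged genes. Known slopes were given only to genes above a floor of mean CPM, and counts were drawn independently for each gene. The simulation thus does not cover genes of low counts, or a tumour that differs over the whole transcriptome as replicate 1 does.

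The score genes, gene lists and tests were chosen with earlier results of these data known. The text names the score genes, the 12 largest slopes in each direction (mean log2 CPM of at least 1, same sign whichever tumour is left out), the 5 smallest p-values in each direction, up to 4 genes per list by p, list members called against their list, the 12 most abundant genes per length, the most variable genes, those that move most when replicate 1 is left out, and Ahr; not every gene so chosen is printed, and others are said to be named after their values were seen. All gene lists were counted; those not described in the report are given in the closing section. Some genes so chosen are not reported here.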

Additional observations from a re-analysis of the deposited data

Results flagged for a closer look

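The level of 1 tumour lay far from the other 5, by Dixon's test at the 95% level (the gap to the nearest tumour over the whole range), for 37 of the 146 list means and named genes examined. Chance alone would give such a gap in about 1 in 20 groups, and the genes were not picked independently of replicate 1. That tumour was the distant one in 34 of the 37, replicate 2 in 3, and no other tumour in any. All values here are log2 CPM in the distant tumour.

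Among list means, replicate 1 was far above the rest in that of the CD4 and regulatory T list (4.06), that of the dendritic cell list (5.03), that of the myeloid chemokine and inflammatory cytokine list (5.23), that of the smooth muscle and pericyte list (7.16) and that of the endothelial list (6.68), and far below it in that of the epithelial and ductal list (3.25), that of the proliferation list (5.72) and that of the cholesterol synthesis list (5.33). Among single genes, it was far above in Ptprc (8.19), Cd4 (5.6), Gzmd (6.78), Flt3 (4.6), Rgs5 (9.57), Plvap (9.38), Tek (5.53), Gja5 (5.81), Sele (4.01), Cdkn1c (4.4) and Srxn1 (6.27). It was far below in Sdc1 (8.39), Sox9 (4.03), Elf3 (3.05), Krt8 (7.88), Sema4g (2.31), Pkp2 (3.61), Prom1 (1.16), Tmprss2 (1.08), Pdx1 (2.96), Foxm1 (6.39), Mcm6 (6.67), Srebf2 (7.86), Gsta4 (1.69), Aldh3a1 (1.34) and Clu (9.43). Replicate 2 was far above the rest in that of the skeletal muscle list (5.35), Tchh (6.79) and Ttn (5.7). The cause was not tested.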

How the results depend on the processing

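No paired analysis was possible because the libraries are of 1 group. Leaving out 1 tumour at a time gave 0 to 2464 rising and 0 to 1658 falling genes; both counts of 0 came without replicate 1 (edgeR; unadjusted 833 and 425), and 588 falling genes were called without replicate 5. With the rank of the score in place of its value, edgeR called 0 and 0 genes (unadjusted 2259 and 1065). DESeq2 on 6 tumours called 1890 falling genes. The fits without replicate 1 by limma-voom (0 and 0; unadjusted 739 and 461) and DESeq2 (245 and 43) were chosen after seeing the data. Every other alternative left each count within 1.5 times of 2197 and 1173: RLE and upper-quartile scaling, library totals, voom, filters, scores without 1 gene or from other pan-leukocyte genes, and the library total in the fit. The median slope over all genes stayed between -0.05 and 0.01 in all of these, so no scaling moved it by 0.1. Without replicate 1, 79 named genes kept their direction and lost their call; with the rank of the score 81 did. Leaving out 1 tumour at a time turned the sign of these slopes, given as lowest to highest: Cfd -2.36 to 2.09, Chil4 -1.77 to 7.80, Eef1a1 -0.35 to 0.16, Ighg2c -2.93 to 1.91, Krt8 -1.43 to 0.25, Rgs5 -0.16 to 1.89, Rplp0 -0.41 to 0.34, Rplp1 -0.21 to 0.64, Sele -0.17 to 1.82, Spp1 -0.66 to 0.23, Tchh -2.44 to 4.47, Tnnt3 -0.80 to 4.55 and Ttn -1.44 to 5.08. Other settings that turned a sign, with the slope under each, were these. By scaling by library totals: Rplp1 (-0.055) and Ttn (0.085). With limma-voom: Ttn (0.23). By adding the log2 library total to the fit: Chil4 (-0.59) and Tnnt3 (-0.48). By testing without a filter: Rplp1 (-0.0061). By using the rank of the score: Tchh (2.21), Ttn (2.15) and Cfd (0.95). With a score from the other pan-leukocyte genes: Rplp1 (-0.017) and Ttn (0.20). With a score without Cd53: Rplp1 (-0.032), Ttn (0.31) and Chil4 (-0.10). With a score without Coro1a: Rplp1 (-0.023) and Chil4 (-0.15). With a score without Laptm5: Rplp1 (-0.0057). With a score without Ptprc: Cfd (0.18) and Tnnt3 (-0.16). The cause was not tested. Depth limits genes of a few CPM, where 10 counts in 3 libraries suffice for testing.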

Other observations

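The remaining gene lists, with edgeR's calls over 6 tumours, were as follows. Over all tested genes, 14.3% rose and 7.61% fell. Of unfolded protein and integrated stress genes 2 of 13 rose and 0 fell (median slope 0.06, or 0.30 without replicate 1). Of immediate early and heat shock genes, often raised by tissue handling, 1 of 14 rose and 0 fell (median slope -0.11, or -0.11 without replicate 1); their summed level ran from 1309 to 1851 CPM. Of hypoxia and glycolysis genes 0 of 18 rose and 1 fell (median slope -0.30, or -0.19 without replicate 1), and the one that fell was Hk2, a hexokinase, at 189, 235, 352, 211, 448 and 321 CPM with a slope of -0.47 ± 0.13 (SE, n = 6, edgeR adjusted p = 0.0364, and -0.86 ± 0.23 without replicate 1). Of keratinocyte genes 0 of 7 rose and 0 fell (median slope -0.52, or 0.30 without replicate 1), of erythrocyte genes 0 of 5 rose and 0 fell (median slope 0.53, or 0.59 without replicate 1) and of Schwann cell and nerve genes 0 of 7 rose and 0 fell (median slope -0.17, or 0.01 without replicate 1). Of acinar genes 0 of 4 rose and 1 fell (median slope 0.19, or -0.37 without replicate 1), and of islet genes 1 of 2 rose and 1 fell (median slope 0.18, or 0.05 without replicate 1). No gene of these lists passed without replicate 1.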
